A study of Mus musculus with 8 samples.

Results

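Interferon response genes are genes that cells switch on when interferon binds its receptors, and 41 of them were followed here in the liver of 2 mouse strains. The members are a fixed list of transcription factors, antiviral enzymes, nucleic acid sensors and GTPases, without chemokines, MHC genes or the Ifi200 cluster. A member was read by the probes that carry its name or an older one, and its brightest probe over all arrays stood for the gene. A total of 40 of the 41 members had a probe, and 39 entered the tests among 17029 genes in all. Oas1g had 1 probe that was not well above background on both arrays of any group, and no probe of Xaf1 was found. The series holds 8 one-colour arrays of total liver RNA, 2 in each of 4 groups: KKAy mice at 11 weeks, C57BL/6J mice at 11 weeks, KKAy mice at 4 weeks and C57BL/6J mice at 4 weeks of age. KKAy mice carry the yellow allele of agouti on the KK background, become obese and diabetic, and are labelled as diabetic. C57BL/6J is a standard inbred strain and is labelled as normal. The strains differ in their whole background, so a strain difference is not that of the yellow allele alone. Both strains were kept on chow and went without food overnight before the liver was taken.

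Type I interferons act through a receptor pair and the kinases Jak1 and Tyk2. These lead to a complex that holds Stat2 and Irf9 and binds interferon-stimulated response elements in promoters. Irf1 takes part in the response to interferon gamma. The induced proteins cut or sequester foreign RNA, coat pathogen-containing vacuoles, tag proteins with Isg15, and feed back on the signal. In the liver, hepatocytes, endothelium and the resident macrophages called Kupffer cells all carry the receptors.

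Levels below are scaled signals, in which 100 is the 75th percentile of that array's processed signal. They compare 1 probe between arrays and say nothing of one gene against another. Differences are log2 differences of group means from limma, with SE and with p-values adjusted by Benjamini-Hochberg over all 17029 genes. A member is said to be lower, higher or called where its adjusted p is under 0.05. The 75th percentile was 476 to 1192 fluorescence units per array, 56.3% to 66.7% of spots were well above background, and the median SD within groups was 0.13 to 0.22 on the log2 scale. Whether the numbered samples of a group came from different animals is not stated in the labels. A p-value here therefore reflects the spread between numbered samples, and that spread may be purely technical. Slide 1 held the 4-week and slide 2 the 11-week arrays, and age cannot be told apart from slide. Both strains shared each slide, always with KKAy at positions 3 and 4, so strain and position cannot be told apart either. Hepatocyte markers were present throughout: all 8 were well above background on every array.

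At 4 weeks of age, most interferon response genes were lower in KKAy than in C57BL/6J liver. Of the 39 members tested, 24 were lower and 0 were higher by limma (0 higher also at an unadjusted p under 0.05), where 9.0% of all genes were called lower and 6.39% higher. The median log2 difference was -1.15 over the members and 0.01 over all genes tested. Both KKAy arrays lay below both C57BL/6J arrays for 29 of the 39 members. No count of this kind was made over all genes, so it has no background to be read against. The members with the smallest adjusted p were Tgtp1, Irf7, Oasl2 and Ifit1. The counts of called members by role were 3 of 5 transcription factors, 2 of 2 genes of the Isg15 system, 5 of 6 OAS enzymes, 3 of 3 IFIT proteins, 3 of 6 nucleic acid sensors, 5 of 8 GTPases and 3 of 9 other effectors. All 24 were lower. Leaving out a single array of either 4-week group gave fewer called members, and fewer calls over all genes.

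**Figure D1:**
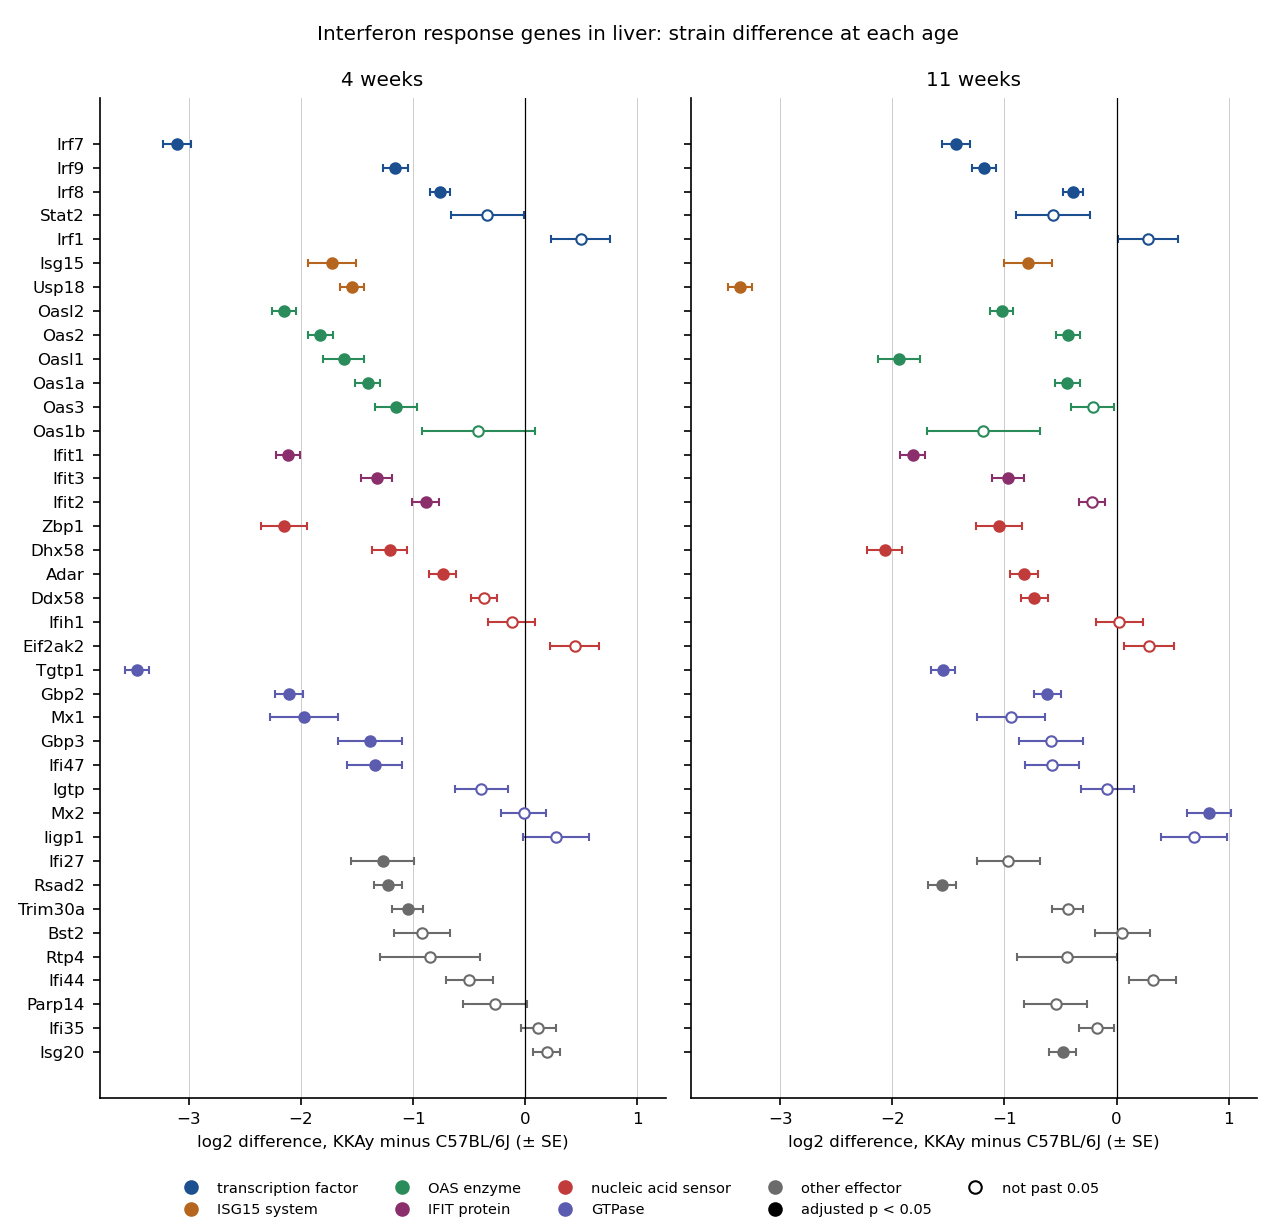
Log2 difference of KKAy minus C57BL/6J for the 39 tested members at 4 weeks (left panel) and 11 weeks (right panel), with bars for the SE, from 2 arrays per group. Colour gives the role and filled points are past an adjusted p of 0.05. At 4 weeks all 24 filled points lie left of 0, and at 11 weeks 19 do while Mx2 lies right of it.

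Markers of other liver cells moved at the same age. For the 16 markers of Kupffer cells and macrophages, limma called 13 lower in KKAy and 0 higher (0 also at an unadjusted p under 0.05), and their summed scaled signal was 11604 to 14282 in KKAy and 23125 to 28016 in C57BL/6J livers. The Kupffer cell receptor Clec4f was at 930.04 and 909 in KKAy livers, against 2171 and 2521 in C57BL/6J livers (log2 difference -1.35, SE 0.12, adjusted p = 0.00128). Of 17 lymphocyte and natural killer cell markers tested, 9 were lower, with sums of 253 to 281 in KKAy and 492 to 493 in C57BL/6J, and Cd79a, Prf1 and Gzma were not well above background on either KKAy array. Of 5 plasmacytoid dendritic cell markers tested, 3 were lower, with sums of 37.4 to 43.7 in KKAy and 52.4 to 55.6 in C57BL/6J, while Siglech and Cd209d did not pass the filter on dim probes. Among other cells, 1 of 8 hepatocyte markers and 1 of 10 markers of sinusoidal endothelium were lower, the last being Cdh5 at -0.53 (adjusted p = 0.0387), with hepatocyte sums of 140542 to 162556 in KKAy and 133996 to 174398 in C57BL/6J. The endothelial lectin Clec4g was the only endothelial marker called higher (log2 difference 0.72, adjusted p = 0.00469). The endothelial sums were 6506 to 6866 in KKAy and 4895 to 4985 in C57BL/6J, without overlap. These sums lean on Clec4g, at 3681 and 3823 in KKAy livers, against 2275 and 2272 in C57BL/6J livers. Of 5 neutrophil markers the dim Ltf was higher (log2 difference 0.92, adjusted p = 0.0332), with sums of 296 to 396 in KKAy and 197 to 259 in C57BL/6J. These sums lean on S100a9, at 260 and 358 in KKAy livers, against 164 and 221 in C57BL/6J livers. It was not called (log2 difference 0.68, adjusted p = 0.179). S100a8, Mpo and Retnlg were not called either, at -0.07, -0.06 and -0.04. The part of these cells in the results on interferon response genes was not tested. In bulk tissue, fewer cells of a type and less RNA per cell cannot be told apart.

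**Figure D2:**
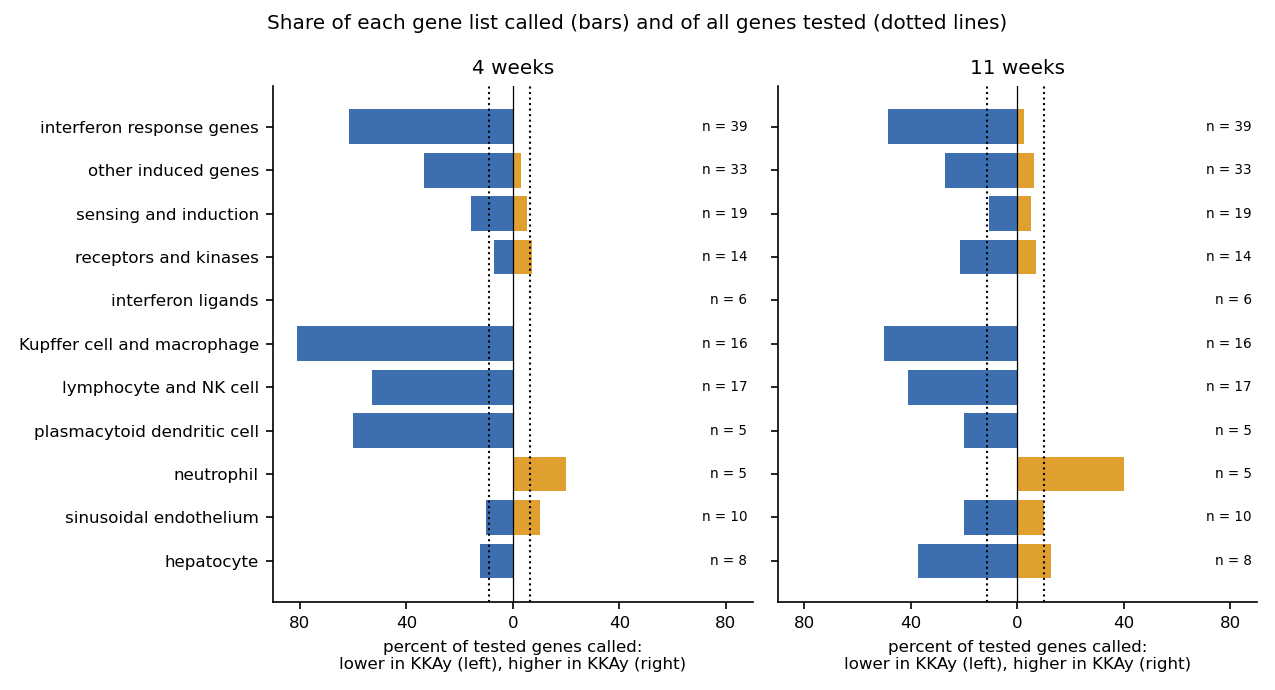
Percent of the tested genes of each list called lower (to the left) or higher (to the right) in KKAy than in C57BL/6J at 4 and 11 weeks, with the number tested beside each bar and the share of all 17029 genes as dotted lines. At 4 weeks the share called lower is 61.5% for the interferon response genes and 81.2% for Kupffer cell and macrophage markers.

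The promoter windows below are shown because they belong to the 4 members with the smallest adjusted p at 4 weeks. They run from 250 bases before to 50 bases after the annotated start, 5′ to 3′ on the gene's strand, from RefSeq on GRCm38.p6, which is C57BL/6J sequence. Capitals mark the response element core GAAANNGAAA on either strand. The Tgtp1 window is chr11:48992197-48992496 on the minus strand, that of Irf7 chr7:141266375-141266674 on the minus strand, that of Oasl2 chr5:114896684-114896983 on the plus strand and that of Ifit1 chr19:34640639-34640938 on the plus strand.
Tgtp1: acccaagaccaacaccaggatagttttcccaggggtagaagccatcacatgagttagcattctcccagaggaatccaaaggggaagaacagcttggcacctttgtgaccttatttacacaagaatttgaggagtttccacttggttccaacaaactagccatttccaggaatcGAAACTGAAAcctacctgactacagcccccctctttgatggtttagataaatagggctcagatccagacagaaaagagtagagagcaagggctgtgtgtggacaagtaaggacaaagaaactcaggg
Irf7: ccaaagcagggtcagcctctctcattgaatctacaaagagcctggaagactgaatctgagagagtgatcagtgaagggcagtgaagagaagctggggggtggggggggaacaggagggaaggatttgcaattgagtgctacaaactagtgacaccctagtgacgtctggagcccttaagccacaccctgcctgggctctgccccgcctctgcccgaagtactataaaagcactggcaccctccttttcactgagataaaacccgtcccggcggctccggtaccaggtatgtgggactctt
Oasl2: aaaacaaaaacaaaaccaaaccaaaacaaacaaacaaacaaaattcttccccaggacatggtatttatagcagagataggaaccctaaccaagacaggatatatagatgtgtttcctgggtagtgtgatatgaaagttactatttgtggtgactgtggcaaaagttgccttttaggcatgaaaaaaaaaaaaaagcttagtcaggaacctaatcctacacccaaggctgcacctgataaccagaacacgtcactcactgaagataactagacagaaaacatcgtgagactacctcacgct
Ifit1: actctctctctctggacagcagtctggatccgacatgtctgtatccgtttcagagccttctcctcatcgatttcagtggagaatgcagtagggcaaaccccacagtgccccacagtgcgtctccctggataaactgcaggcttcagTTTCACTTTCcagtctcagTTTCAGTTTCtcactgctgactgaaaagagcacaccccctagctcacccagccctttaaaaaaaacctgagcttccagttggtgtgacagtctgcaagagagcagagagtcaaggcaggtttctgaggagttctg
Ifit1 held 2 cores and Tgtp1 held 1, while Irf7 and Oasl2 held 0 in these windows.

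Promoter windows were found for 30 of the 41 members, several for some genes. The core GAAANNGAAA, on either strand, stood in a window of 17 of those 30 members. By window, 18 of 40 member windows (45%) held it, against 1131 of 32851 windows of all genes (3.44%). The members were listed for their known response to interferon, so this share describes the list and is no independent evidence. Of the members lower in KKAy at 4 weeks, 10 of 18 with a window held the core, and of tested members not called, 6 of 10 did. Windows with 2 or more cores, overlapping ones included, made up 7 of 40 member windows (17.5%), among them those of Ifit1, Ifit3, Oas1a and Isg15, which had 3 that overlap, against 0.225% of all windows. The gamma-activated site letters TTCNNNGAA, on either strand, stood in 11 of 40 member windows (27.5%), against 8.3% of all windows.

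**Figure D3:**
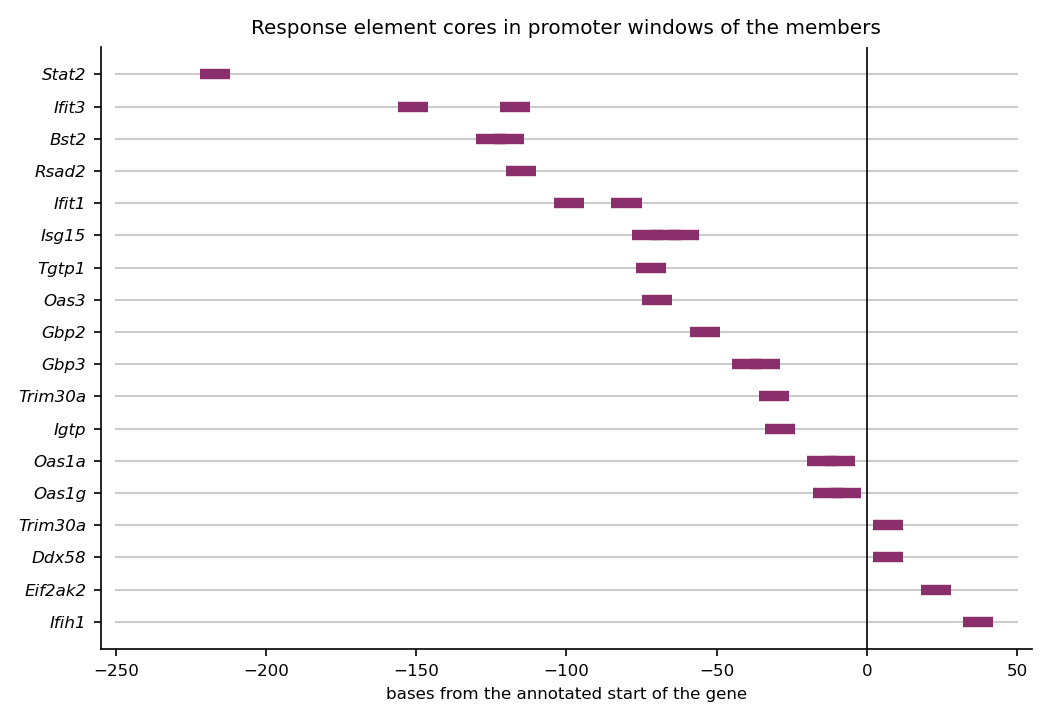
Positions of the core GAAANNGAAA (thick marks) in the promoter windows of the 17 members that hold it, in bases from the annotated start (vertical line). Each grey line is 1 window of 300 bases, and Trim30a has 2 windows with a core.

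Among the transcription factors, Irf7, which amplifies interferon production, was at 39.5 and 38.7 in KKAy livers, against 344 and 329 in C57BL/6J livers at 4 weeks (log2 difference -3.11, SE 0.12, adjusted p = 0.000143). Its probe lies at chr7:141116085-141116435 in the file annotation (mm8). Irf9, a DNA-binding part of the complex that holds Stat2, was at 141 and 134 in KKAy livers, against 314 and 297 in C57BL/6J livers (log2 difference -1.16, SE 0.11, adjusted p = 0.00169). For both genes the arrays of each strain were close together and the strains did not overlap. Irf8, which also directs the development of macrophages and dendritic cells, was at 141 and 146 in KKAy livers, against 239.6 and 246 in C57BL/6J livers (log2 difference -0.76, SE 0.09, adjusted p = 0.00378). Stat2, a member of that complex, was at 138 and 212 in KKAy livers, against 181 and 259 in C57BL/6J livers, and the strains overlapped (log2 difference -0.34, SE 0.33, adjusted p = 0.621). Irf1, a factor of the interferon gamma response, was at 909 and 1249.6 in KKAy livers, against 663 and 864 in C57BL/6J livers, with both KKAy arrays above both C57BL/6J arrays and no call (log2 difference 0.49, SE 0.27, adjusted p = 0.317). Thus 3 of the 5 factors were lower at 4 weeks and 2 were not called.

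The largest fall among the members at 4 weeks was that of Tgtp1, listed as Tgtp in the files, a GTPase that acts on pathogen-containing vacuoles. It was at 39.9 and 43.1 in KKAy livers, against 431 and 483 in C57BL/6J livers (log2 difference -3.46, SE 0.11, adjusted p = 9.68e-05), and its probe lies at chr11:48830094-48830153 (mm8). The second probe of the gene had a log2 difference of -1.70, and Tgtp1 has a near-identical neighbour, Tgtp2, that the probes may also read. Gbp2, a guanylate-binding protein of the same defence, was at 39.4 and 35.9 in KKAy livers, against 172 and 152 in C57BL/6J livers (log2 difference -2.11, SE 0.12, adjusted p = 0.0004). Gbp3 was at 75.5 and 109 in KKAy livers, against 211 and 264 in C57BL/6J livers and Ifi47, another vacuole GTPase, at 117 and 85.5 in KKAy livers, against 274 and 234 in C57BL/6J livers. Their log2 differences were -1.38 (adjusted p = 0.0254) and -1.34 (adjusted p = 0.0167). Mx1, a dynamin-like antiviral GTPase, was dim, at 3.47 and 2.1 in KKAy livers, against 11.3 and 9.97 in C57BL/6J livers (log2 difference -1.97, SE 0.30, adjusted p = 0.00912), and was well above background on 1 of the 2 KKAy arrays. The remaining 3 GTPases were not called, with log2 differences of -0.39 for Igtp, -0.01 for Mx2 and 0.27 for Iigp1.

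Most enzymes of the OAS family make oligoadenylates that activate RNase L. At 4 weeks Oasl2 was at 29.6 and 32.0 in KKAy livers, against 133 and 140.2 in C57BL/6J livers (log2 difference -2.15, SE 0.10, adjusted p = 0.000224). Oas2 was at 11.5 and 11.6 in KKAy livers, against 40.2 and 41.8 in C57BL/6J livers (log2 difference -1.83, SE 0.11, adjusted p = 0.000441) and Oas1a at 49.3 and 50.4 in KKAy livers, against 137 and 127 in C57BL/6J livers (log2 difference -1.40, SE 0.11, adjusted p = 0.000982). In each of these genes the C57BL/6J arrays stood clear above the KKAy arrays. Oasl1, which restrains Irf7 translation in mice, was at 47.6 and 37.9 in KKAy livers, against 143 and 119 in C57BL/6J livers (log2 difference -1.62, SE 0.18, adjusted p = 0.00327). Oas3 was lower, with a log2 difference of -1.15 (adjusted p = 0.012). Oas1b, a flavivirus resistance gene of mice, was near background and not called (-0.42). The Oas1 genes are near-identical copies of each other, so their probes may not read 1 gene alone.

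The IFIT proteins bind foreign RNA and block its translation. Ifit1 was at 14.3 and 13.7 in KKAy livers, against 61.9 and 59.4 in C57BL/6J livers at 4 weeks (log2 difference -2.11, SE 0.11, adjusted p = 0.000272). Ifit3 was at 137 and 159 in KKAy livers, against 349 and 393 in C57BL/6J livers (log2 difference -1.33, SE 0.14, adjusted p = 0.00265). Ifit2 was at 14.5 and 14.9 in KKAy livers, against 25.8 and 28.8 in C57BL/6J livers (log2 difference -0.89, SE 0.12, adjusted p = 0.00523). All 3 were lower with no overlap between the strains. In the Isg15 system, Usp18, a protease that removes Isg15 from proteins and damps the type I receptor, was at 135 and 152 in KKAy livers, against 411 and 427 in C57BL/6J livers (log2 difference -1.55, SE 0.10, adjusted p = 0.00058). Isg15 itself, a ubiquitin-like tag, was at 43.1 and 52.4 in KKAy livers, against 141 and 175 in C57BL/6J livers (log2 difference -1.72, SE 0.21, adjusted p = 0.00426). The file annotation places the Isg15 probe on chromosome 17, whereas RefSeq has the gene on chromosome 4, so its identity is less sure.

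Of the 6 sensors of nucleic acids, 3 were lower at 4 weeks. Zbp1, which binds Z-form nucleic acids, was at 34.6 and 40.7 in KKAy livers, against 154 and 181 in C57BL/6J livers (log2 difference -2.15, SE 0.21, adjusted p = 0.00181). Dhx58, a regulator of the RIG-I-like receptors, was at 75.8 and 93.5 in KKAy livers, against 187 and 202 in C57BL/6J livers (log2 difference -1.21, SE 0.16, adjusted p = 0.00485). Adar, which edits adenosines in double-stranded RNA, was at 68.6 and 64.2 in KKAy livers, against 115 and 106 in C57BL/6J livers (log2 difference -0.74, SE 0.12, adjusted p = 0.0125). All 3 were lower in KKAy without overlap. On their brightest probes the receptors themselves were not called: Ddx58, which encodes RIG-I, had a log2 difference of -0.37 (adjusted p = 0.103) and Ifih1 one of -0.12 (adjusted p = 0.804). Other probes went further down, with -0.47, -0.53 and -0.80 for Ddx58 and -3.37 for Ifih1, so the result for Ifih1 depends on the probe. The translation-blocking kinase Eif2ak2 was not called either, at 0.44 (adjusted p = 0.28).

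Of the other effectors, Rsad2, or viperin, which halts viral RNA synthesis, was at 95.2 and 95.2 in KKAy livers, against 203 and 242 in C57BL/6J livers at 4 weeks (log2 difference -1.22, SE 0.13, adjusted p = 0.00238), and its 2 other probes were also lower. Ifi27 was at 1096 and 1499 in KKAy livers, against 2692 and 3561 in C57BL/6J livers (log2 difference -1.27, SE 0.28, adjusted p = 0.0308). It was read by the probe listed as D12Ertd647e, because probes listed as Ifi27 carry the accession of Ifi27l2a. Its call was lost without the filter on dim probes (adjusted p = 0.0791), from the 4 arrays alone (0.0592) and in 6 of the 8 fits that left out 1 array. Trim30a, listed as Trim30, was at 32.6 and 27.1 in KKAy livers, against 67.0 and 56.3 in C57BL/6J livers (log2 difference -1.05, SE 0.14, adjusted p = 0.00559). These 3 were the called ones among 9. Bst2, the tether that holds budding virus on cells, was at 2537 and 3441 in KKAy livers, against 4909.6 and 6363 in C57BL/6J livers and missed the threshold (log2 difference -0.92, SE 0.25, adjusted p = 0.0598). Rtp4, Ifi44, Parp14, Ifi35 and Isg20 were not called, with log2 differences of -0.85, -0.50, -0.27, 0.12 and 0.19 in that order.

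At 11 weeks, KKAy livers were again lower in many members, with Usp18 now the furthest apart. Of the 39 tested, 19 were lower and 1 was higher, where 11.5% of all genes were called lower and 9.95% higher. The median log2 difference was -0.58 over the members and 0.00 over all genes tested. Of the 24 members lower at 4 weeks, 17 were lower at 11 weeks too, and the other 7 (Oas3, Ifit2, Mx1, Ifi27, Ifi47, Gbp3 and Trim30a) were not called. Calls shared by both ages were not counted over all genes. Isg20 and Ddx58 were called lower at 11 weeks only, and 12 members were called at neither age. Fewer members were called when either C57BL/6J array or KKAy replicate 1 of 11 weeks was left out, and calls over all genes became fewer too. The count thus depends on single arrays. Among markers, 8 of 16 for Kupffer cells and macrophages were lower, with sums of 8533 to 10901 in KKAy and 11471 to 13168 in C57BL/6J. Of 17 lymphocyte and natural killer cell markers 7 were lower, and 14 had a log2 difference below 0 (median -0.49). Their sums overlapped, at 217 to 306 in KKAy and 242 to 272 in C57BL/6J. These sums lean on Cd8b1, at 196 and 102 in KKAy livers, against 108 and 74.9 in C57BL/6J livers. In KKAy, 7 of the 17 (Cd3g, Cd8a, Cd2, Cd79a, Klrb1c, Prf1 and Gzma) were not well above background. Of 8 hepatocyte markers 3 were lower and 1 was higher. Of 10 markers of sinusoidal endothelium 2 were lower and 1 was higher, and 8 had a log2 difference below 0 (median -0.12). Of 5 plasmacytoid dendritic cell markers tested 1 was lower, and 4 had a log2 difference below 0 (median -0.55). Of 5 neutrophil markers tested, S100a8 and S100a9 were higher by 1.58 (adjusted p = 0.00145) and 2.32 (adjusted p = 0.00292). Mpo (0.31), Retnlg (0.26) and Ltf (0.49) were not called. The part of these cells in the 11-week values was not tested.

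Usp18 was at 18.9 and 19.3 in KKAy livers, against 192 and 200.1 in C57BL/6J livers at 11 weeks (log2 difference -3.36, SE 0.10, adjusted p = 5.95e-05), with each pair of arrays nearly equal. Its probe lies at chr6:121236114-121236173 (mm8). Isg15 was at 41.0 and 56.3 in KKAy livers, against 76.4 and 90.5 in C57BL/6J livers (log2 difference -0.79, SE 0.21, adjusted p = 0.049). Among transcription factors, Irf7 was at 54.0 and 44.6 in KKAy livers, against 136 and 129 in C57BL/6J livers (log2 difference -1.43, SE 0.12, adjusted p = 0.000992). Irf9 was at 144 and 130.4 in KKAy livers, against 323 and 301 in C57BL/6J livers (log2 difference -1.18, SE 0.11, adjusted p = 0.0012), close to its values at 4 weeks. Irf8 was at 94.1 and 94.6 in KKAy livers, against 122 and 125 in C57BL/6J livers (log2 difference -0.39, SE 0.09, adjusted p = 0.031). These 3 factors were lower without overlap. Stat2 was at 101 and 161 in KKAy livers, against 171 and 210.2 in C57BL/6J livers (log2 difference -0.57, SE 0.33, adjusted p = 0.29) and Irf1 at 788 and 1147 in KKAy livers, against 703 and 869 in C57BL/6J livers (log2 difference 0.28, SE 0.27, adjusted p = 0.528), and neither was called.

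Ifit1 was at 10.8 and 9.46 in KKAy livers, against 35.3 and 36.1 in C57BL/6J livers at 11 weeks (log2 difference -1.82, SE 0.11, adjusted p = 0.000308), and Ifit3 at 72.1 and 82.5 in KKAy livers, against 142 and 161 in C57BL/6J livers (log2 difference -0.97, SE 0.14, adjusted p = 0.00616). Ifit2 was at 9.55 and 8.36 in KKAy livers, against 10.1 and 10.6 in C57BL/6J livers, a small difference that was not called (log2 difference -0.22, adjusted p = 0.261). Of the OAS enzymes, Oasl1 was at 40.2 and 32.8 in KKAy livers, against 149 and 130.2 in C57BL/6J livers (log2 difference -1.94, SE 0.18, adjusted p = 0.00135) and Oasl2 at 23.8 and 24.9 in KKAy livers, against 47.7 and 51.3 in C57BL/6J livers (log2 difference -1.02, SE 0.10, adjusted p = 0.0017). Oas1a was at 34.5 and 30.9 in KKAy livers, against 46.4 and 42.3 in C57BL/6J livers and Oas2 at 7.11 and 7.43 in KKAy livers, against 10.5 and 9.15 in C57BL/6J livers. Their differences were near the threshold, at -0.44 (adjusted p = 0.0406) and -0.43 (adjusted p = 0.0401). Oas3 was at 3.58 and 2.99 in KKAy livers, against 4.54 and 3.17 in C57BL/6J livers and Oas1b at 1.15 and 1.37 in KKAy livers, against 2.5 and 3.28 in C57BL/6J livers, and neither was called. The Oas1b probe was not well above background on either KKAy array.

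Dhx58 was at 35.4 and 42.5 in KKAy livers, against 155 and 170.2 in C57BL/6J livers at 11 weeks (log2 difference -2.07, SE 0.16, adjusted p = 0.000622). Ddx58 was at 32.8 and 38.7 in KKAy livers, against 58.7 and 59.7 in C57BL/6J livers (log2 difference -0.73, SE 0.12, adjusted p = 0.00863), and its 3 other probes had log2 differences of -0.45, -0.81 and -1.45. Adar was at 61.5 and 52.6 in KKAy livers, against 105 and 97.0 in C57BL/6J livers (log2 difference -0.83, SE 0.12, adjusted p = 0.00672). Zbp1 was at 30.4 and 43.0 in KKAy livers, against 69.4 and 80.4 in C57BL/6J livers (log2 difference -1.05, SE 0.21, adjusted p = 0.0172). In all 4 sensors KKAy lay below C57BL/6J on every array, whereas Ifih1 and Eif2ak2 were not called (0.02 and 0.29). The second Ifih1 probe had -3.47, opposite in sign to the brightest. Rsad2 was at 35.5 and 38.0 in KKAy livers, against 103 and 114 in C57BL/6J livers (log2 difference -1.56, SE 0.13, adjusted p = 0.000804). The exonuclease gene Isg20 was at 42.8 and 48.6 in KKAy livers, against 62.0 and 65.2 in C57BL/6J livers (log2 difference -0.48, SE 0.12, adjusted p = 0.0389).

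Among the GTPases at 11 weeks, Tgtp1 was at 34.8 and 35.6 in KKAy livers, against 100.5 and 105 in C57BL/6J livers (log2 difference -1.54, SE 0.11, adjusted p = 0.000478). Gbp2 was at 30.9 and 27.2 in KKAy livers, against 45.4 and 43.7 in C57BL/6J livers (log2 difference -0.62, SE 0.12, adjusted p = 0.0183). These were the 2 lower GTPases. Mx2, an antiviral relative of Mx1, was the single member higher in KKAy at either age, at 76.0 and 90.8 in KKAy livers, against 44.8 and 49.1 in C57BL/6J livers (log2 difference 0.82, SE 0.20, adjusted p = 0.034). At 4 weeks it had been at 43.3 and 56.1 in KKAy livers, against 43.5 and 56.9 in C57BL/6J livers, with no difference between the strains beyond the spread of the arrays. Mx1 was at 1.83 and 1.76 in KKAy livers, against 4.34 and 2.74 in C57BL/6J livers, not well above background on either KKAy array. Against the lowest signal that counts as above background, it was at least 1.21-fold lower in KKAy, with no call (adjusted p = 0.0812). Iigp1 was at 6690.03 and 9545 in KKAy livers, against 4350.5 and 5634 in C57BL/6J livers and was not called (log2 difference 0.69, adjusted p = 0.161). Gbp3, Ifi47 and Igtp had log2 differences of -0.58, -0.58 and -0.08, none called. The other effectors Ifi27, Parp14, Rtp4, Trim30a, Ifi35, Bst2 and Ifi44 ranged from -0.96 to 0.32, with none called.

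**Figure D4:**
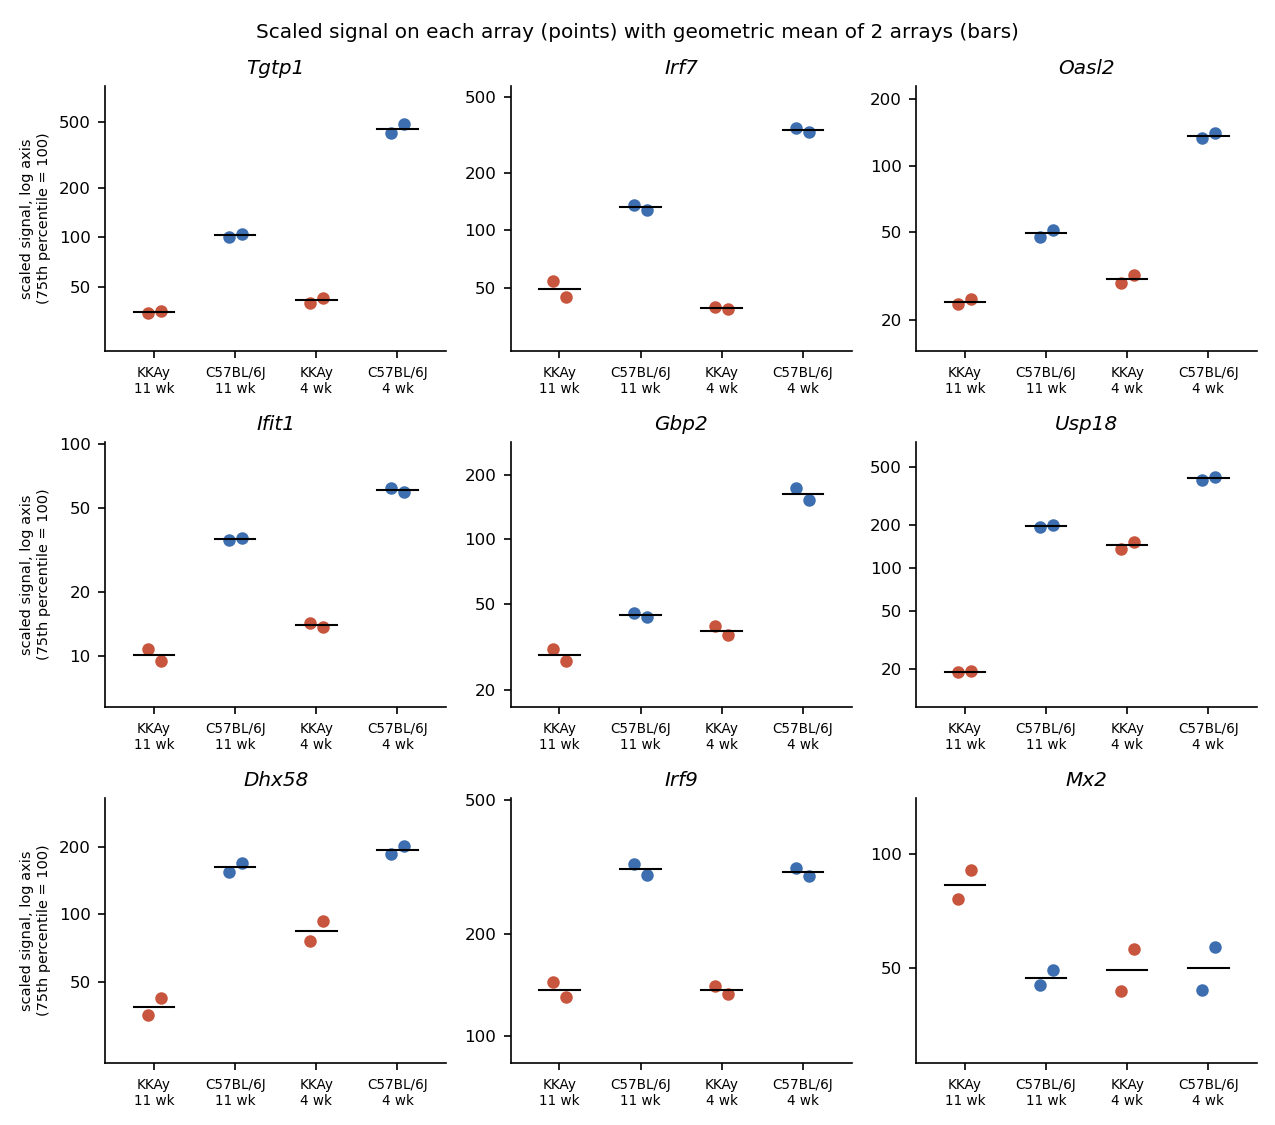
Scaled signal of 9 members on every array, on log axes with 100 at the array's 75th percentile. Points are arrays and bars the geometric mean of 2 arrays, with KKAy in red and C57BL/6J in blue. Tgtp1, Irf7, Oasl2 and Gbp2 are high in C57BL/6J at 4 weeks and nearer to KKAy at 11 weeks, Usp18 and Dhx58 are lowest in KKAy at 11 weeks, Irf9 keeps its levels, and Mx2 is highest in KKAy at 11 weeks.

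The strain difference itself changed with age in 7 members, by the interaction term. In 6 of them the fall in KKAy was smaller at 11 weeks, where 2.06% of all genes had a positive and 1.76% a negative interaction. The median interaction was 0.37 over the members and 0.01 over all genes. Tgtp1 had log2 differences of -1.54 at 11 weeks, against -3.46 at 4 weeks (interaction 1.91, SE 0.15, adjusted p = 0.00451). Irf7 had -1.43 at 11 weeks, against -3.11 at 4 weeks (interaction 1.68, SE 0.18, adjusted p = 0.0101). Gbp2, Oas2, Oasl2 and Oas1a followed with interactions of 1.49 (adjusted p = 0.0133), 1.40 (adjusted p = 0.0114), 1.13 (adjusted p = 0.0177) and 0.96 (adjusted p = 0.035). The second Tgtp1 probe gave a smaller interaction of 0.50. Usp18 went the other way, with -3.36 at 11 weeks, against -1.55 at 4 weeks (interaction -1.81, SE 0.15, adjusted p = 0.00455). These calls are fragile in number: in every fit that left out a single array, fewer members were called than with all arrays. Calls over all genes became fewer in those fits too, so the loss is not particular to the members. The sign of each of the 7 interactions stayed the same in those fits. Of the 24 members lower at 4 weeks, 18 had a difference nearer to 0 at 11 weeks. Those 24 were picked by their low 4-week values, and genes outside the members were not counted in this way. That count is therefore no separate evidence of a change with age. Among 16 Kupffer cell and macrophage markers, Mpeg1 had an interaction of 1.02 (adjusted p = 0.0241) and Marco one of -3.11 (adjusted p = 0.0341), the 2 that were called. The median of that list was 0.49, with 2 of 16 below 0, where 14 of 39 members were below 0. Of the lymphocyte and natural killer cell markers the median was 0.41, with 2 of 17 below 0 and 1 called, Gzma, which was not well above background in KKAy at either age. Their part in the members' interactions was not tested.

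**Figure D5:**
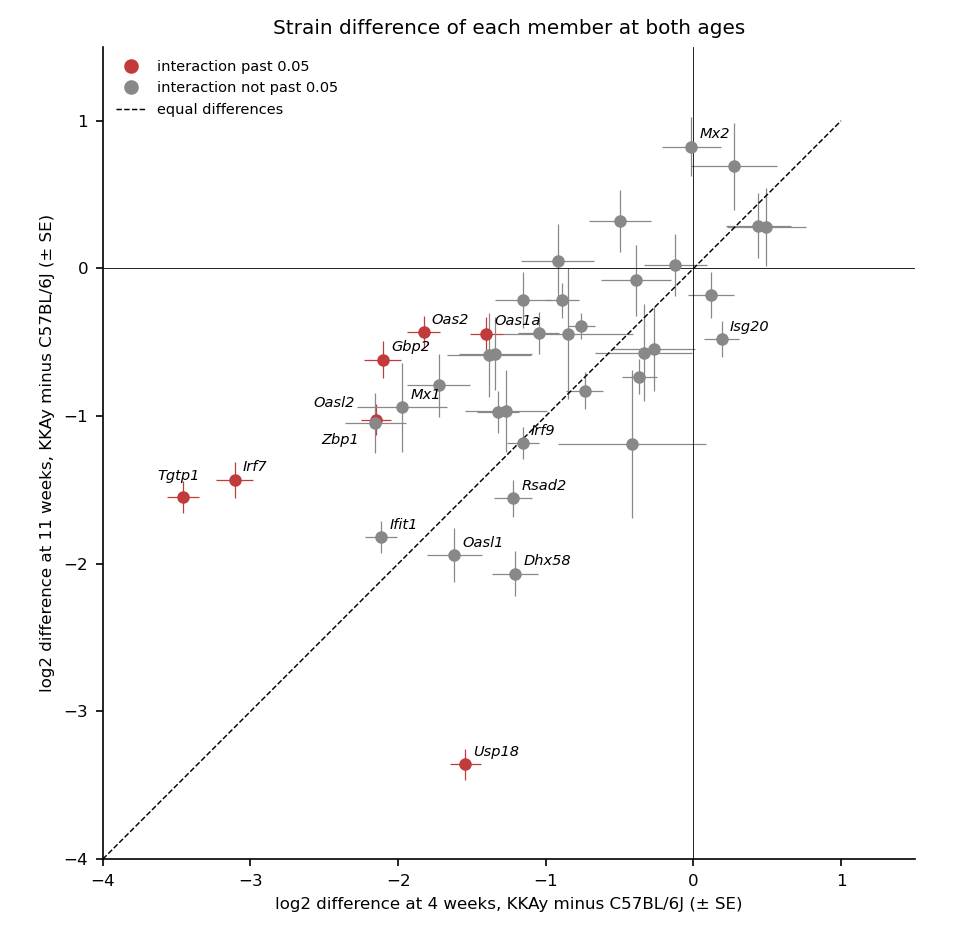
Log2 difference of KKAy minus C57BL/6J at 11 weeks (vertical axis) against that at 4 weeks (horizontal axis) for the 39 tested members, with bars for the SE. Red points have an interaction past an adjusted p of 0.05, and the dashed line marks equal differences. Of the 7 red points 6 lie above the line, and Usp18 lies below it.

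In C57BL/6J livers, 18 of 39 members were lower at 11 than at 4 weeks and 0 were higher by limma (0 higher also at an unadjusted p under 0.05), where 6.49% of all genes were called lower and 1.90% higher. The median log2 difference was -0.74 over the members and 0.05 over all genes. Tgtp1 was at 100.5 and 105 at 11 weeks, against 431 and 483 at 4 weeks (log2 difference -2.15, SE 0.11, adjusted p = 0.000581). Oas2 was at 10.5 and 9.15 at 11 weeks, against 40.2 and 41.8 at 4 weeks (log2 difference -2.06, SE 0.11, adjusted p = 0.000612) and Gbp2 at 45.4 and 43.7 at 11 weeks, against 172 and 152 at 4 weeks (log2 difference -1.86, SE 0.12, adjusted p = 0.00115). The older arrays lay below the younger ones in each. Oasl2 was at 47.7 and 51.3 at 11 weeks, against 133 and 140.2 at 4 weeks (log2 difference -1.47, SE 0.10, adjusted p = 0.00144). Oas1a was at 46.4 and 42.3 at 11 weeks, against 137 and 127 at 4 weeks (log2 difference -1.57, SE 0.11, adjusted p = 0.00148), and Ifit2 at 10.1 and 10.6 at 11 weeks, against 25.8 and 28.8 at 4 weeks (log2 difference -1.39, SE 0.12, adjusted p = 0.00226). Irf7 and Irf8 were lower, with log2 differences of -1.35 (adjusted p = 0.00287) and -0.97 (adjusted p = 0.00298), while Irf9, Irf1 and Stat2 were not called (0.03, 0.05 and -0.19). Leaving out either array of a C57BL/6J group gave fewer called members, and fewer calls over all genes. In this strain 13 of the 16 markers of Kupffer cells and macrophages were lower at 11 weeks, as were 9 of 17 lymphocyte and natural killer cell markers. Limma called 0 of 8 hepatocyte markers (1 higher at an unadjusted p under 0.05). Their part in these age differences was not tested.

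In KKAy livers, 12 of 39 members were lower at 11 than at 4 weeks and 1, Mx2, was higher, where 10.7% of all genes were called lower and 7.89% higher. The median log2 difference was -0.34 over the members and 0.02 over all genes. Usp18 was at 18.9 and 19.3 at 11 weeks, against 135 and 152 at 4 weeks (log2 difference -2.91, SE 0.10, adjusted p = 0.000114). Rsad2 was at 35.5 and 38.0 at 11 weeks, against 95.2 and 95.2 at 4 weeks (log2 difference -1.38, SE 0.13, adjusted p = 0.00186) and Isg20 at 42.8 and 48.6 at 11 weeks, against 90.6 and 97.4 at 4 weeks (log2 difference -1.04, SE 0.12, adjusted p = 0.00375). The younger arrays stood above the older ones in all 3. Dhx58 was at 35.4 and 42.5 at 11 weeks, against 75.8 and 93.5 at 4 weeks (log2 difference -1.12, SE 0.16, adjusted p = 0.00679), Ifit3 at 72.1 and 82.5 at 11 weeks, against 137 and 159 at 4 weeks (log2 difference -0.94, SE 0.14, adjusted p = 0.00884) and Irf8 at 94.1 and 94.6 at 11 weeks, against 141 and 146 at 4 weeks (log2 difference -0.60, SE 0.09, adjusted p = 0.00895). Irf7, Irf9, Irf1 and Stat2 were not called (0.33, 0.00, -0.16 and -0.42). Mx2 was at 76.0 and 90.8 at 11 weeks, against 43.3 and 56.1 at 4 weeks (log2 difference 0.75, SE 0.20, adjusted p = 0.0499), just inside the threshold. Leaving out any KKAy array of 4 or 11 weeks gave fewer called members, and fewer calls over all genes. Likewise 9 of 16 markers of Kupffer cells and macrophages, 5 of 10 of sinusoidal endothelium and 9 of 17 lymphocyte and natural killer cell markers were lower. Of 5 neutrophil markers tested, S100a8 and S100a9 were higher, with log2 differences of 1.1 (adjusted p = 0.00683) and 1.05 (adjusted p = 0.0486). Mpo (0.21), Retnlg (-0.25) and Ltf (-0.69) were not called. Of 8 hepatocyte markers 1 was lower and Ttr higher (log2 difference 0.88, adjusted p = 0.00732). The part of these cells was not tested. A total of 9 members were lower with age in both strains (Irf8, Oas1a, Oas2, Usp18, Ifit1, Ifit2, Ifit3, Rsad2 and Trim30a). Genes lower in both strains were not counted over all genes, so this number has no background beside it. The strain and age comparisons share arrays, so their counts are not independent of each other.

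The signalling chain above the members was read against the shares of all genes called, 9.0% lower and 6.39% higher at 4 weeks and 11.5% lower and 9.95% higher at 11 weeks. Of 19 interferon genes listed, 14 had a probe and 6 passed the filter on dim probes, and limma called 0 of those 6 in either strain comparison (0 at 4 weeks and 2 at 11 weeks at an unadjusted p under 0.05). Ifnb1 did not pass the filter, and Ifng was well above background on both arrays of 4-week C57BL/6J only, at 1.87 and 2.57 in KKAy livers, against 3.15 and 5.06 in C57BL/6J livers at that age. Of 14 receptor and kinase genes, 1 was lower and 1 higher at 4 weeks, and 3 were lower and 1 higher at 11 weeks. Their median log2 differences were 0.00 at both ages.

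Of 19 tested genes of sensing and interferon induction, 3 were lower and 1 higher at 4 weeks, and 2 lower and 1 higher at 11 weeks. With shares called of 21.1% at 4 weeks and 15.8% at 11 weeks in both directions, this list lay near all genes. Tlr7, the endosomal receptor for single-stranded RNA, was at 13.9 and 13.0 in KKAy livers, against 34.2 and 32.0 in C57BL/6J livers at 4 weeks (log2 difference -1.30, SE 0.10, adjusted p = 0.000982) and at 5.18 and 5.62 in KKAy livers, against 15.0 and 15.1 in C57BL/6J livers at 11 weeks (log2 difference -1.48, SE 0.10, adjusted p = 0.000489). It was lower without overlap at both ages. Among 33 other induced genes tested, 11 were lower and 1 higher at 4 weeks, and 9 lower and 2 higher at 11 weeks. Their median log2 differences were -0.78 at 4 weeks and -0.25 at 11 weeks. Slfn2, a schlafen gene needed for quiescence of lymphocytes in mice, was at 19.9 and 17.4 in KKAy livers, against 82.4 and 74.2 in C57BL/6J livers at 4 weeks (log2 difference -2.07, SE 0.16, adjusted p = 0.00079). Samhd1, which degrades nucleotides, was at 47.1 and 43.5 in KKAy livers, against 95.4 and 91.9 in C57BL/6J livers (log2 difference -1.05, SE 0.11, adjusted p = 0.00273), and Cmpk2, a mitochondrial nucleotide kinase beside Rsad2, at 17.6 and 12.2 in KKAy livers, against 69.4 and 55.4 in C57BL/6J livers (log2 difference -2.08, SE 0.26, adjusted p = 0.00409).

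Gbp4, a guanylate-binding protein outside the member list, was higher in KKAy at 11 weeks, at 54.2 and 45.6 in KKAy livers, against 11.0 and 9.32 in C57BL/6J livers (log2 difference 2.29, SE 0.16, adjusted p = 0.000518). At 4 weeks it was at 48.5 and 39.6 in KKAy livers, against 34.6 and 32.0 in C57BL/6J livers and was not called (log2 difference 0.40, adjusted p = 0.188). Its interaction was 1.89 (adjusted p = 0.0151). The GBP genes lie in clusters of close copies, so probes may read more than 1 of them. Tor3a, an interferon-induced torsin ATPase, was at 76.6 and 99.2 in KKAy livers, against 296 and 345 in C57BL/6J livers at 11 weeks (log2 difference -1.88, SE 0.20, adjusted p = 0.00203). Parp9, an ADP-ribosylation enzyme, was at 159 and 115 in KKAy livers, against 395 and 329 in C57BL/6J livers (log2 difference -1.42, SE 0.20, adjusted p = 0.00518).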

How the data were processed

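Liver RNA of 8 mouse samples was measured on one-colour Agilent arrays, 2 per strain and age. Per the file headers, the authors read spot intensity with Feature Extraction 9.5.1.1 of Agilent. Its processed signal is background-subtracted and not normalized between arrays. The deposited value table holds log2 values equal to that signal minus 1 constant per array (within 0.001 for 99.5% to 99.6% of probes, column medians -3.96 to -3.67), by a tool not given in the sources used here. Columns of it that lacked a sample numbered 0.

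Here spots of a probe were averaged without controls and flagged spots (59 to 89 per array, 0 saturated), and the 75th percentile of an array was subtracted from its log2 processed signal. The filter kept 25319 probes, those that both arrays of some group showed well above background. Names came by accession, symbol or unique older symbol through RefSeq (GRCm38.p6). Isgf3g is given as Irf9, D11Lgp2e as Dhx58 and D12Ertd647e as Ifi27. Probe positions are those of the files, on mm8. With limma 3.58.1 (R 4.3.3), 1 mean per group was fitted over all 8 arrays, with 4 residual and 1.926 prior degrees of freedom. The procedure was tested on simulated data with 200 changed genes, for the strain comparison at 4 weeks. It recovered 37% of log2 differences of 1 and 73% of those of 2, with 4 false calls. A gene that was not called may therefore still differ. Tables and figures used pandas 2.3.3, numpy 2.4.6 and matplotlib 3.10.9 in Python 3.11.15.

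The members and lists were chosen with earlier results of these data known. Values per array are given for up to 12 called members with the smallest adjusted p in each strain comparison, up to 6 in each age comparison and the interaction, for the 5 transcription factors, and 4 other pathway genes per strain comparison. A further gene that the rule names is not reported here. Others were named after their values were seen. Alternatives were normexp (offset 50), quantile and spike-in scaling, the value table, 2 other filters, the mean of probes, a replicate block, the 4 arrays of a comparison alone, and each array left out.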

Additional observations from a re-analysis of the deposited data

Results flagged for a closer look

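A total of 7 members had strain differences that differed between the ages by the interaction test of limma, as the strain difference at 11 weeks minus that at 4 weeks on the log2 scale. Tgtp1, the vacuole GTPase, had 1.91, Irf7, the interferon-amplifying factor, 1.68, and Gbp2 1.49. The OAS enzymes Oas2, Oasl2 and Oas1a had 1.40, 1.13 and 0.96. In these 6 the arrays of C57BL/6J were lower at 11 weeks than at 4 weeks, whereas those of KKAy differed less. Usp18 had -1.81, and its lowest arrays were those of KKAy at 11 weeks. With 2 samples per group, single arrays far from the others were not looked for.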

How the results depend on the processing

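Called members were refitted under up to 17 alternatives. The 4 arrays of a comparison alone were fitted for the strain comparisons only, and with probes well above background on all arrays 22 of 24 calls at 4 weeks and 16 of 18 for age in C57BL/6J could be refitted. Of the 1352 values this gave, 0 reversed direction and 1102 stayed past the threshold. Many of these values could not reverse. The replicate block, the 4 arrays alone and leaving out an array of an uninvolved group keep each log2 difference as it was. The value table holds the same signal with nearly the same scaling. Neither number therefore measures how robust the calls are. Members called under each alternative run for them numbered 15 of 24 at 4 weeks, 9 of 20 at 11 weeks, 4 of 13 for age in KKAy, 10 of 18 for age in C57BL/6J and 0 of 7 for the interaction. At 11 weeks, spike-in scaling gave 13 called members, testing all probes without the filter gave 12, and fitting the 4 arrays by themselves gave 13. For age in KKAy, 8 were called with normexp and 5 without the filter. For the interaction, 3 were called with spike-in scaling and 2 without the filter. Leaving out single arrays gave 18 to 24 calls at 4 weeks, 10 to 16 at 11 weeks, 4 to 10 for age in KKAy, 12 to 18 for age in C57BL/6J and 0 to 5 for the interaction, where a lone array is assumed to vary like the other groups. Calls over all genes also became fewer in every comparison whenever a single array was left out. The cause of the changes was not tested, save that fewer samples or more genes tested make calls harder. Spike-in scaling moved the median of all genes to 0.37 at 4 weeks, 0.14 at 11 weeks, -0.19 for age in KKAy and -0.21 for the interaction, and it turned the split of all calls at 4 weeks to 76.3% higher, against 41.5% in the main setting. That split was 61% against 46.3% at 11 weeks, 19.3% against 42.4% for age in KKAy and 35.7% against 54% for the interaction. The members' median was then -0.80 at 4 weeks and -0.44 at 11 weeks, against -1.15 and -0.58 in the main setting. Its distance from the median of all genes, -1.17 and -0.58, cannot change, because this scaling shifts all genes of an array alike. With spike-in scaling Eif2ak2 was called higher at 4 weeks.

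Same-numbered arrays of different groups deviated together (correlations of deviations from 0.529 to 0.676 over 6 pairs of groups), but the labels do not pair them and each comparison has 2 pairs, so they share only a number. With the replicate block, 35 members were called at 4 weeks (4 higher), 33 at 11 weeks, 27 for age in KKAy, 27 for age in C57BL/6J and 28 for the interaction. Among all 17029 genes the block called 7466 at 4 weeks and 9358 at 11 weeks, against 2621 and 3658 in the main setting. For age in KKAy the block called 9082 (main setting 3170), for age in C57BL/6J 5759 (1429) and for the interaction 5285 (650). Calls thus rose over all genes and not in the members alone.

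Signal over background limits Mx1, Oas1b and Oas3, each not well above background on 1 or both KKAy arrays of at least 1 age.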

Other observations

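Several members were read by more than 1 probe, and in some the probes gave unlike strain differences. The 15 other probes that passed the filter belonged to 12 members. All 15 had the sign of the brightest probe at 4 weeks, as did 14 at 11 weeks. For age, 13 of the 15 did in each strain, but for the interaction only 8 of the 15 did. Ifih1, which encodes a receptor for long double-stranded RNA, had a second probe with log2 differences of -3.37 at 4 weeks and -3.47 at 11 weeks, while its brightest probe gave -0.12 and 0.02 at those ages. Age differences on that second probe were small, at -0.40 in KKAy and -0.31 in C57BL/6J. Oas3 was not called at 11 weeks on its brightest probe (-0.21), whereas its second probe had -2.06. Parp14 had -1.08 at 4 weeks on a second probe, against -0.27 on the brightest. These probes were picked after their values were seen and were not tested singly.

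The receptor for interferon lambda, Ifnlr1, was dim. It was at 0.808 and 0.886 in KKAy livers, against 2.22 and 3.36 in C57BL/6J livers at 11 weeks. At 4 weeks it was at 6.02 and 7.78 in KKAy livers, against 3.61 and 2.5 in C57BL/6J livers, where it was called higher in KKAy (log2 difference 1.19, SE 0.27, adjusted p = 0.0366). It was not well above background on either KKAy array of 11 weeks, nor on 1 of the 2 C57BL/6J arrays at each age, so no fold is given for 11 weeks. Gbp6, another guanylate-binding protein, was higher in KKAy at 11 weeks, at 53.4 and 35.6 in KKAy livers, against 19.7 and 15.4 in C57BL/6J livers (log2 difference 1.32, SE 0.28, adjusted p = 0.0221), and had been at 25.6 and 18.7 in KKAy livers, against 52.1 and 39.5 in C57BL/6J livers at 4 weeks, with no call (log2 difference -1.05, SE 0.28, adjusted p = 0.0582). Its interaction was 2.38 (adjusted p = 0.0356).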
